A study of Mus musculus with 6 samples.

Results

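The genes described here are 44 genes that mark T cells and cytotoxic lymphocytes, read in libraries labelled as tumour-associated macrophages (TAM) of mouse liver tumours. They were chosen by symbol, and all 44 were found among the 55291 gene symbols of the deposited table. The groups were TREM2+ TAM and TREM2- TAM, named for a lipid-sensing receptor of the myeloid surface, with 3 libraries each. All 6 libraries came from liver tumour tissue, described by the series as hepatocellular carcinoma. The sources used here do not give the strain, sex or age of the mice, how the tumours arose, the sorting gates, or whether replicates were separate animals. P-values therefore measure the spread between these libraries, which may be technical.

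T cells recognise antigen through a receptor of variable chains that carries no signalling part of its own. The CD3 chains pass the signal to the kinases LCK and ZAP-70 and on to the adaptor LAT, with CD4 or CD8 as coreceptor. Cytotoxic T cells and natural killer (NK) cells kill by releasing perforin and granzymes, and NK cells choose targets through activating and inhibitory receptors of their own. In tumours, T cells under lasting stimulation carry inhibitory receptors such as PD-1 and TIGIT, and regulatory T cells carry the transcription factor FOXP3.

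Levels are given as TPM, length-corrected shares of a library that sum to 1000000. Differences are log2 fold changes of TREM2+ over TREM2- from limma, computed on log2(TPM + 1), which understates changes of low genes, and carry standard errors. A gene was tested if it reached 1 TPM in at least 3 libraries, and adjusted p-values cover all 13788 tested genes. Of the 44 genes 42 were tested, and 39 of these reached 1 TPM in all 6 libraries, while Foxp3 and Lef1 stayed under the filter. Reads could be recovered for 43 of the 44. They ranged upwards from 11 for Foxp3 in TREM2- replicate 3, with a median of 404 for a gene in a library, and none of the 43 was at 0 in any library. Trem2 itself stood at 39.6, 40.8 and 30.7 TPM in the TREM2+ libraries, against 16.9, 20.5 and 21.1 TPM in the TREM2- libraries. The groups did not overlap, but Trem2 did not pass the threshold of 0.05 (adjusted p = 0.0855 in limma).

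Transcripts of T cells and cytotoxic lymphocytes were present in all 6 macrophage libraries, and 1 library stood far above the rest. The 44 genes summed to 2923, 2331 and 2868 TPM in TREM2+ replicates 1, 2 and 3. In TREM2- replicates 1, 2 and 3 they summed to 8074, 3081 and 3367 TPM. TREM2- replicate 1 was the highest of all libraries in 42 of the 44 genes, the exceptions being Il7r and Lag3. Over all genes tested, 52.0% were highest in that library. It held 1.38 times (Lag3) to 6.604 times (Foxp3) the mean of TREM2- replicates 2 and 3, with a median of 2.76 times over the 44 genes and 1.34 times over all genes tested. Markers of B cells (12 of 12), dendritic cells (9 of 10), hepatocytes (6 of 7), basophils and mast cells (6 of 7) and innate lymphoid cells (6 of 8) were also mostly highest in that library. Markers of plasma cells (5 of 8), macrophages (1 of 12), neutrophils (1 of 8) and endothelium (0 of 8) were so less often. Mitochondrially encoded transcripts took from 3.78% to 10.02% of the TPM in TREM2+ libraries, and 12.35% in TREM2- replicate 1 against 2.42% and 2.96% in TREM2- replicates 2 and 3. The part of these values in the results was not tested. In such bulk libraries fewer cells of a type and less RNA per cell cannot be told apart.

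No gene of the 44 passed the threshold in the comparison of TREM2+ with TREM2- TAM. Of all genes tested in limma, 2.05% were called higher and 0.37% lower in TREM2+ TAM. Adjusted p-values of the 42 tested genes ran from 0.111 to 0.94. At an unadjusted p under 0.05, 13 were lower and 1 was higher, beside 5.34% and 7.45% of all genes tested. The log2 fold change was negative for 39 of the 42 and positive for Il7r, Ccl5 and Xcl1, with a median of -0.76 beside -0.09 over all genes tested. Without TREM2- replicate 1 the median was -0.29 beside 0.049 over all genes, 34 were negative, and again none passed, where 1.8% of all genes were called higher and 0.053% lower. In 21 of the 44 genes all 3 TREM2+ libraries lay below all 3 TREM2- libraries, where this held for 7.62% of all genes tested. With TREM2- replicate 1 left out it again held for 21 genes, beside 8.75% of all genes tested. This count could not fall, because leaving out a library cannot lower the lowest TREM2- value. All 3 TREM2+ libraries lay above all 3 TREM2- libraries in Il7r alone, and in 9.07% of all genes tested.

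**Figure D1:**
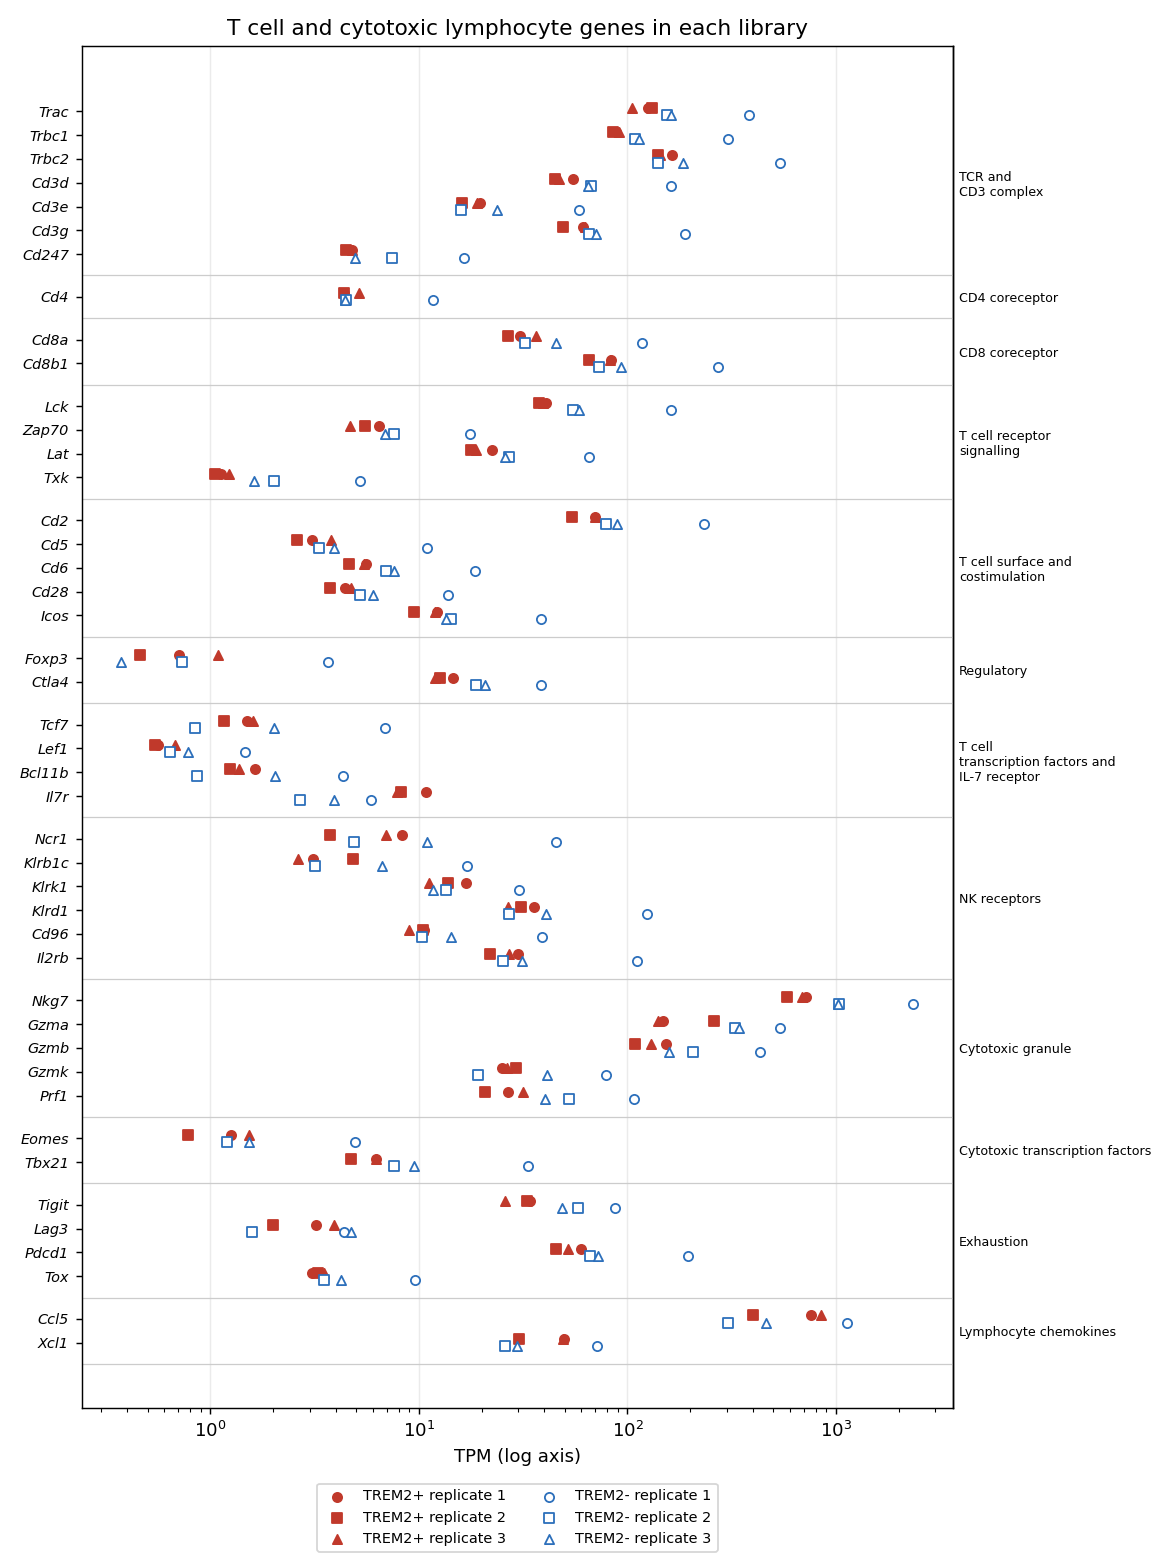
TPM of the 44 genes (rows, grouped by role) in each library on a log axis, with TREM2+ libraries as filled red symbols and TREM2- libraries as open blue symbols. The circle of TREM2- replicate 1 lies to the right of the other 5 libraries in 42 rows, and in Il7r all 3 TREM2+ libraries lie to the right of all 3 TREM2- libraries.

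The results turn mostly on the inhibitory receptor gene Tigit and the granule genes Gzma, Prf1 and Nkg7, which had the most negative log2 fold changes without TREM2- replicate 1, and on Il7r, which lay on the other side. Their promoters are shown so that lower and higher genes can be set side by side. Each is the 250 bases before the start that RefSeq gives on GRCm38.p6, read 5′ to 3′ on the strand of the gene. Gene coordinates elsewhere are those of GENCODE M21, whose starts can differ, so that the Il7r window lies within the gene as drawn there, and the Nkg7 window and the last bases of the Prf1 window reach into it. Windows were at hand for 30 of the 44 genes. Capitals mark the letters TGTGGTT (RUNX factors), AGGAAGT (ETS factors) or GGTGTGA (T-box factors) on either strand, which do not overlap one another here.
Tigit (chr16:43664185-43664434, minus strand): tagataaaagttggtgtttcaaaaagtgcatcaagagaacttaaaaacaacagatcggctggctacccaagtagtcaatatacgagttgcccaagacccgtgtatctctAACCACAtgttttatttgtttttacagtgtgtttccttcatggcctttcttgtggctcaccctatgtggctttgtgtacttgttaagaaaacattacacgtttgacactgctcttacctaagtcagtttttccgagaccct
Gzma (chr13:113100982-113101231, minus strand): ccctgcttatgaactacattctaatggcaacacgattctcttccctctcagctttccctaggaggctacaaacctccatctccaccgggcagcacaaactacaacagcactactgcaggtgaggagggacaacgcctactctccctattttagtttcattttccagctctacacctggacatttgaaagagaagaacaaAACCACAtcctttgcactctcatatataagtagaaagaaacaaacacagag
Prf1 (chr10:61297586-61297835, plus strand): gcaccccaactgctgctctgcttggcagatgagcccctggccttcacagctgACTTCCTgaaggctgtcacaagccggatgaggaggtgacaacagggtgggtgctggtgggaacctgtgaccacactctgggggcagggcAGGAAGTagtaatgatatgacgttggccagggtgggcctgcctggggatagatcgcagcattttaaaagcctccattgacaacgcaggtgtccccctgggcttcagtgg
Nkg7 (chr7:43436888-43437137, plus strand): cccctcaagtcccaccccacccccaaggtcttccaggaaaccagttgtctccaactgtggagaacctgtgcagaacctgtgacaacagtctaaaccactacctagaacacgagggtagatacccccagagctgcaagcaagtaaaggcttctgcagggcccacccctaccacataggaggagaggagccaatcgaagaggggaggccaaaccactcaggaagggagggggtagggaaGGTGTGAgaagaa
Il7r (chr15:9529877-9530126, minus strand): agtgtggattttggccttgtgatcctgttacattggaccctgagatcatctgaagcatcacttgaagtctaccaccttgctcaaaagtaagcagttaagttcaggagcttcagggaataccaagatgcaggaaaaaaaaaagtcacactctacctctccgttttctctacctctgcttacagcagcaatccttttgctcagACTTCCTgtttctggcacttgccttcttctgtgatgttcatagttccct

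Tigit and Gzma each held the RUNX letters on the reverse strand, 141 and 51 bases before the RefSeq start. Prf1 held the ETS letters at 2 places and Il7r at 1, while Nkg7 held the T-box letters 13 bases before its RefSeq start. Of the 40 windows of the 30 genes, 10 held the RUNX letters, 12 the ETS letters and 3 the T-box letters. Of all 32851 windows of that length in the reference, 4.396% held the RUNX, 7.69% the ETS and 3.33% the T-box letters. Such matches describe the letters alone.

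Among the chains of the T cell receptor complex, 5 of 7 genes had all TREM2+ libraries below all TREM2- libraries. This held for 7.62% of all genes tested, and none of the 7 passed the test. Trbc2, a constant region of the beta chain (chromosome 6, 41546730 to 41548352 on mm10), was the most abundant of the 7 and stood at 163, 139.7 and 144 TPM in the TREM2+ libraries, against 539.9, 141 and 186 TPM in the TREM2- libraries. TREM2+ replicate 1 lay above TREM2- replicate 2, so the groups overlapped. Its log2 fold change was -0.70 ± 0.44 with all libraries and -0.12 ± 0.21 without TREM2- replicate 1. The other beta constant gene, Trbc1, had 88.2, 84.8 and 90.9 TPM in the TREM2+ libraries, against 305, 108 and 113 TPM in the TREM2- libraries. Of the stretches of 50 bases in Trbc2 exons 44.01% recur in other genes, mostly in Trbc1, as do 40.5% of those of Trbc1, mostly in Trbc2, so the split of reads between both genes is uncertain.

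Trac, the constant region of the alpha chain, had 125, 131 and 105 TPM in the TREM2+ libraries, against 381, 154 and 161 TPM in the TREM2- libraries. All TREM2- libraries lay above all TREM2+ libraries, and the log2 fold change was -0.82 ± 0.35 (adjusted p = 0.366 in limma), and -0.39 ± 0.20 without TREM2- replicate 1. The CD3 chains, which couple the receptor to signalling, were also highest in TREM2- replicate 1. Cd3g had 61.4, 49.2 and 62.3 TPM in the TREM2+ libraries, against 189.8, 65.4 and 70.6 TPM in the TREM2- libraries, and its log2 fold change was -0.73 ± 0.39 with and -0.24 ± 0.20 without TREM2- replicate 1. Cd3d and the zeta chain gene Cd247 also had groups that did not overlap. Those of Cd247 nearly met, at 4.77 TPM in TREM2+ replicate 1 and 4.96 TPM in TREM2- replicate 3. The log2 fold changes of Cd3d and Cd247 were -0.86 ± 0.35 and -0.76 ± 0.37. Without TREM2- replicate 1 they were -0.43 ± 0.19 and -0.32 ± 0.22. Cd3e had 19.6, 16.1 and 18.9 TPM in the TREM2+ libraries, against 58.5, 15.97 and 23.7 TPM in the TREM2- libraries. It was the chain whose groups overlapped, since TREM2- replicate 2 lay just below the lowest TREM2+ library, and its log2 fold change was -0.61 ± 0.41 with all libraries and -0.094 ± 0.23 without TREM2- replicate 1.

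Coreceptor transcripts were mostly those of CD8. Cd8a, which encodes the alpha chain of CD8, had 30.6, 26.8 and 36.4 TPM in the TREM2+ libraries, against 117, 32.1 and 45.3 TPM in the TREM2- libraries. Cd8b1, the beta chain that marks conventional cytotoxic T cells, had 83.6, 65.6 and 82.7 TPM in the TREM2+ libraries, against 271, 73.4 and 93.5 TPM in the TREM2- libraries. Both overlapped between the groups, and without TREM2- replicate 1 their log2 fold changes were -0.29 ± 0.23 and -0.11 ± 0.21. Cd4, the coreceptor of helper T cells, was far lower at 4.38, 4.38 and 5.18 TPM in the TREM2+ libraries, against 11.7, 4.49 and 4.43 TPM in the TREM2- libraries. Apart from TREM2- replicate 1 the 5 libraries were within a narrow range, and the log2 fold change of Cd4 was -0.36 ± 0.34 with all libraries and 0.045 ± 0.20 without that one. The ratio of Cd8a to Cd4 was 7.002, 6.12 and 7.02 in the TREM2+ libraries, against 10.01, 7.15 and 10.2 in the TREM2- libraries. The groups did not overlap, but TREM2+ replicate 3 and TREM2- replicate 2 nearly met. It was 1 of 10 ratios between pairs that were computed. Those of Gzmb to Prf1 (TREM2+ above) and Nkg7 to Ccl5 (TREM2+ below) did not overlap either, and the rest did. The share over other pairs of genes was not computed. With 3 against 3 libraries an exact permutation test cannot give a p under 0.1, two-sided, for such a single value.

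The signalling genes downstream of the receptor had TREM2+ below TREM2- in all 4 cases, without overlap. This held for 7.62% of all genes tested, and none of the 4 passed the test. Lck, the first kinase of the cascade (chromosome 4, 129548344 to 129573641 on mm10), was the most abundant at 40.8, 37.8 and 39.3 TPM in the TREM2+ libraries, against 161, 54.9 and 58.4 TPM in the TREM2- libraries. The lowest TREM2- library exceeded the highest TREM2+ library, and the log2 fold change was -1.01 ± 0.38 with all libraries (adjusted p = 0.29 in limma) and -0.52 ± 0.17 without TREM2- replicate 1 (adjusted p = 0.244). The adaptor gene Lat had a log2 fold change of -0.84 ± 0.35, the kinase gene Zap70 of -0.73 ± 0.34 and Txk, a kinase of the TEC family, of -0.78 ± 0.35. Without TREM2- replicate 1 these were -0.41 ± 0.19, -0.34 ± 0.21 and -0.40 ± 0.23. The groups of Zap70 nearly met, at 6.42 TPM in TREM2+ replicate 1 and 6.86 TPM in TREM2- replicate 3. Txk was low, between 1.05 TPM in TREM2+ replicate 2 and 5.22 TPM in TREM2- replicate 1.

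In 7.62% of all genes tested all TREM2+ libraries lay below all TREM2- libraries. Of the surface and costimulation genes this held for Cd2, Cd6, Cd28 and Icos, and Cd5 overlapped. Cd2, an adhesion receptor of T cells and NK cells, led them at 70.2, 54.3 and 70.1 TPM in the TREM2+ libraries, against 234, 79.3 and 89.2 TPM in the TREM2- libraries. Both TREM2+ replicates 1 and 3 were close to TREM2- replicate 2. Log2 fold changes of these 5 genes ran from -0.87 ± 0.39 (Cd2) to -0.61 ± 0.38 (Cd5), and from -0.42 ± 0.20 (Cd6) to -0.16 ± 0.22 (Cd5) without TREM2- replicate 1.

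The regulatory pair split by abundance. Ctla4, an inhibitory receptor that regulatory and activated T cells carry, had 14.6, 12.6 and 11.97 TPM in the TREM2+ libraries, against 38.5, 18.8 and 20.8 TPM in the TREM2- libraries, without overlap, and a log2 fold change of -0.88 ± 0.29 (adjusted p = 0.211 in limma). It was -0.57 ± 0.19 without TREM2- replicate 1. Foxp3, the defining factor of regulatory T cells, was near the limit of detection at 0.709, 0.4597 and 1.09 TPM in the TREM2+ libraries, against 3.65, 0.733 and 0.374 TPM in the TREM2- libraries. These values rest on 25, 15 and 32 reads in the TREM2+ libraries and on 149, 25 and 11 reads in the TREM2- libraries, and only TREM2- replicate 1 stood apart. In the fit without a filter its log2 fold change was -0.36 ± 0.48 (adjusted p = 0.827 in limma), and none of the 44 genes passed there, where 0.25% of 38054 genes were called higher and 0.00788% lower. The exons of Foxp3 share 14.7% of their stretches of 50 bases with other genes, mostly with Flicr, which overlaps it on the same strand, so its few reads are uncertain.

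Transcription factors of naive and memory T cells were low and did not separate the groups. Tcf7, the gene of TCF-1, had 1.504, 1.16 and 1.599 TPM in the TREM2+ libraries, against 6.84, 0.844 and 2.01 TPM in the TREM2- libraries. The log2 fold change was -0.54 ± 0.47 with all libraries and 0.036 ± 0.29 without TREM2- replicate 1. Bcl11b, which fixes T cell identity, had 1.63, 1.25 and 1.36 TPM in the TREM2+ libraries, against 4.33, 0.8598 and 2.03 TPM in the TREM2- libraries. Its log2 fold change was -0.37 ± 0.38 with all libraries and 0.020 ± 0.29 without that one. In both genes TREM2- replicate 1 was the highest library and TREM2- replicate 2 the lowest. Lef1, under the filter, ranged from 0.543 to 0.674 TPM in TREM2+ libraries and from 0.641 to 1.47 TPM in TREM2- libraries.

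Il7r, the receptor chain for the survival cytokine IL-7 (chromosome 15, 9505788 to 9530176 on mm10), had the most positive log2 fold change of the 42 and was the gene with all TREM2+ libraries above all TREM2- libraries. It stood at 10.8, 8.21 and 7.85 TPM in the TREM2+ libraries, against 5.89, 2.67 and 3.93 TPM in the TREM2- libraries. Within its group TREM2- replicate 1 was again the highest. The log2 fold change was 0.98 ± 0.28 (adjusted p = 0.147 in limma) and 1.21 ± 0.24 without TREM2- replicate 1 (adjusted p = 0.066). It was called higher with quantile normalization, which gives all libraries 1 distribution (adjusted p = 0.0406, where 2.82% of all genes were called higher) and with library weights, which let libraries far from their group count less (adjusted p = 0.00479, where 7.08% were). It was not called with the other scalings tried or when any 1 library was left out.

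All 6 NK receptor genes overlapped between the groups, and none passed the test. Klrd1, which encodes CD94, was the most abundant at 35.6, 30.99 and 26.7 TPM in the TREM2+ libraries, against 123, 27.1 and 40.6 TPM in the TREM2- libraries. TREM2- replicate 1 was far above the other 5 libraries, and the log2 fold change was -0.72 ± 0.48 with all libraries and -0.10 ± 0.24 without TREM2- replicate 1. Il2rb, a receptor chain for IL-2 and IL-15, had a log2 fold change of -0.76 ± 0.48, and -0.11 ± 0.22 without TREM2- replicate 1. Ncr1, the receptor NKp46, is also among the innate lymphoid markers listed. Ncr1 had 8.26, 3.73 and 6.98 TPM in the TREM2+ libraries, against 45.6, 4.88 and 10.9 TPM in the TREM2- libraries. In TREM2- replicate 1 Ncr1 was 5.78 times the mean of the other TREM2- libraries, the largest such step among the 42 tested genes. For Ncr1 the log2 fold change was -1.07 ± 0.65 with all libraries and -0.25 ± 0.40 without TREM2- replicate 1. Klrb1c, the NK1.1 antigen in some strains, had -0.91 ± 0.48 with and -0.35 ± 0.34 without that library, and 16.98% of its stretches of 50 bases recur, mostly in the overlapping gene Gm44511. Cd96, a receptor for nectin ligands on T and NK cells, had -0.80 ± 0.42 with and -0.27 ± 0.21 without it. Klrk1, the activating receptor NKG2D, had 16.8, 13.8 and 11.1 TPM in the TREM2+ libraries, against 30.3, 13.4 and 11.7 TPM in the TREM2- libraries. Its log2 fold change was -0.28 ± 0.35 with all libraries and, with the sign turned, 0.12 ± 0.23 without TREM2- replicate 1.

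Of 5 cytotoxic granule genes 4 had all TREM2+ libraries below all TREM2- libraries, where this held for 7.62% of all genes tested. None of the 5 passed the test. Nkg7, a granule membrane protein of T and NK cells (chromosome 7, 43437073 to 43438249 on mm10) and the most abundant of the 44 genes, had 717, 579 and 690.2 TPM in the TREM2+ libraries, against 2342, 1031 and 1028 TPM in the TREM2- libraries. TREM2- replicates 2 and 3 were nearly equal and lay above all TREM2+ libraries, and the log2 fold change was -1.04 ± 0.34 (adjusted p = 0.204 in limma). Without TREM2- replicate 1 it was -0.64 ± 0.21 (adjusted p = 0.235).

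Gzma, which encodes granzyme A (chromosome 13, 113093825 to 113100981 on mm10), had 148, 261 and 139.8 TPM in the TREM2+ libraries, against 537, 327 and 343 TPM in the TREM2- libraries. TREM2+ replicate 2 stood well above the other TREM2+ libraries but below every TREM2- library. Its log2 fold change was -1.16 ± 0.31 (adjusted p = 0.115 in limma). Without TREM2- replicate 1 it was -0.93 ± 0.30 (adjusted p = 0.235). When TREM2+ replicate 2 was left out it was -1.44 ± 0.31 with an adjusted p of 0.0477, where 0.544% of all genes were called lower and 1.43% higher. Gzma was also called lower with library weights (adjusted p = 0.0399, where 2.82% of all genes were) and with voom, a limma fit on recovered reads weighted by their precision (adjusted p = 0.0281, where 1.28% were lower and 3.33% higher).

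Prf1, the pore-forming perforin (chromosome 10, 61297833 to 61304680 on mm10), had 26.7, 20.7 and 31.7 TPM in the TREM2+ libraries, against 107, 52.5 and 40.2 TPM in the TREM2- libraries. Every TREM2- library lay above every TREM2+ library. The log2 fold change of -1.20 ± 0.36 was the most negative of the 42 (adjusted p = 0.16 in limma) and was -0.80 ± 0.24 without TREM2- replicate 1. Prf1 was called lower with library weights (adjusted p = 0.0215) and with voom (adjusted p = 0.0485). Gzmb, granzyme B, had 153, 109 and 130.1 TPM in the TREM2+ libraries, against 434, 206 and 158 TPM in the TREM2- libraries. Its groups did not overlap, although TREM2+ replicate 1 and TREM2- replicate 3 nearly met, and the log2 fold change was -0.90 ± 0.36 with all libraries and -0.48 ± 0.23 without TREM2- replicate 1. Gzmk, a granzyme of memory-like CD8 T cells, had 24.9, 29.1 and 26.4 TPM in the TREM2+ libraries, against 78.7, 19.1 and 41.1 TPM in the TREM2- libraries. Its groups overlapped, with a log2 fold change of -0.55 ± 0.43 with all libraries and -0.069 ± 0.32 without TREM2- replicate 1.

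The cytotoxic programme is driven by a pair of T-box factors, and neither gene passed the test. Tbx21, the gene of T-bet, had 6.26, 4.74 and 6.198 TPM in the TREM2+ libraries, against 33.5, 7.6 and 9.43 TPM in the TREM2- libraries, without overlap, and a log2 fold change of -1.12 ± 0.47 (adjusted p = 0.356 in limma). Without TREM2- replicate 1 this was -0.50 ± 0.21. Eomes, which encodes a related T-box factor, was low and overlapped, with a log2 fold change of -0.57 ± 0.39 with all libraries and -0.12 ± 0.26 without that one.

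Among the receptors of exhausted T cells, Tigit (chromosome 16, 43648867 to 43664146 on mm10) had the smallest p of the 44 genes. It stood at 34.2, 33.1 and 25.8 TPM in the TREM2+ libraries, against 87.5, 57.8 and 48.5 TPM in the TREM2- libraries. All TREM2+ libraries were below all TREM2- libraries, and TREM2- replicate 1 stood less far from its group than in most other genes. The log2 fold change was -1.002 ± 0.27 (adjusted p = 0.111 in limma) and -0.76 ± 0.21 without TREM2- replicate 1 (adjusted p = 0.16). Tigit was called lower with median-of-ratios scaling of the libraries (adjusted p = 0.0202), quantile normalization (0.0168), a repeat family left out (0.0206), library weights (0.0198) and voom (0.0217). With the first 3 of these settings 0.581%, 0.892% and 0.709% of all genes were called lower, and 3.06%, 2.82% and 1.99% higher. It was not called when any 1 library was left out.

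Pdcd1, the gene of PD-1, was the most abundant of the exhaustion genes at 59.8, 45.6 and 52.1 TPM in the TREM2+ libraries, against 195, 65.8 and 72.3 TPM in the TREM2- libraries. Its groups did not overlap, and the log2 fold change was -0.89 ± 0.39 with all libraries and -0.40 ± 0.20 without TREM2- replicate 1. Tox, a nuclear factor of exhausted T cells, had -0.55 ± 0.33 with and -0.17 ± 0.20 without that library. Lag3, an inhibitory receptor for MHC class II, had 3.199, 1.995 and 3.91 TPM in the TREM2+ libraries, against 4.36, 1.59 and 4.72 TPM in the TREM2- libraries. Lag3 libraries were mixed, with TREM2- replicate 2 the lowest and TREM2- replicate 3 the highest, and the log2 fold change was -0.12 ± 0.36, and 0.039 ± 0.39 without TREM2- replicate 1.

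The chemokine genes of lymphocytes did not share the direction of the granule genes. Ccl5, which attracts T cells and monocytes and is also made by myeloid cells, had 760.1, 398 and 843 TPM in the TREM2+ libraries, against 1124, 303 and 462 TPM in the TREM2- libraries. The Ccl5 log2 fold change was 0.23 ± 0.48 with all libraries and 0.76 ± 0.38 without TREM2- replicate 1. Xcl1, a ligand for cross-presenting dendritic cells, had 49.9, 30.04 and 49.1 TPM in the TREM2+ libraries, against 71.4, 25.9 and 29.4 TPM in the TREM2- libraries. With all libraries the groups of Xcl1 overlapped, with a log2 fold change of 0.14 ± 0.39 (adjusted p = 0.936 in limma). Without TREM2- replicate 1 all TREM2+ libraries of Xcl1 exceeded the remaining TREM2- libraries, as in 20.6% of all genes tested, and the log2 fold change was 0.59 ± 0.27 (adjusted p = 0.407 in limma).

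**Figure D2:**
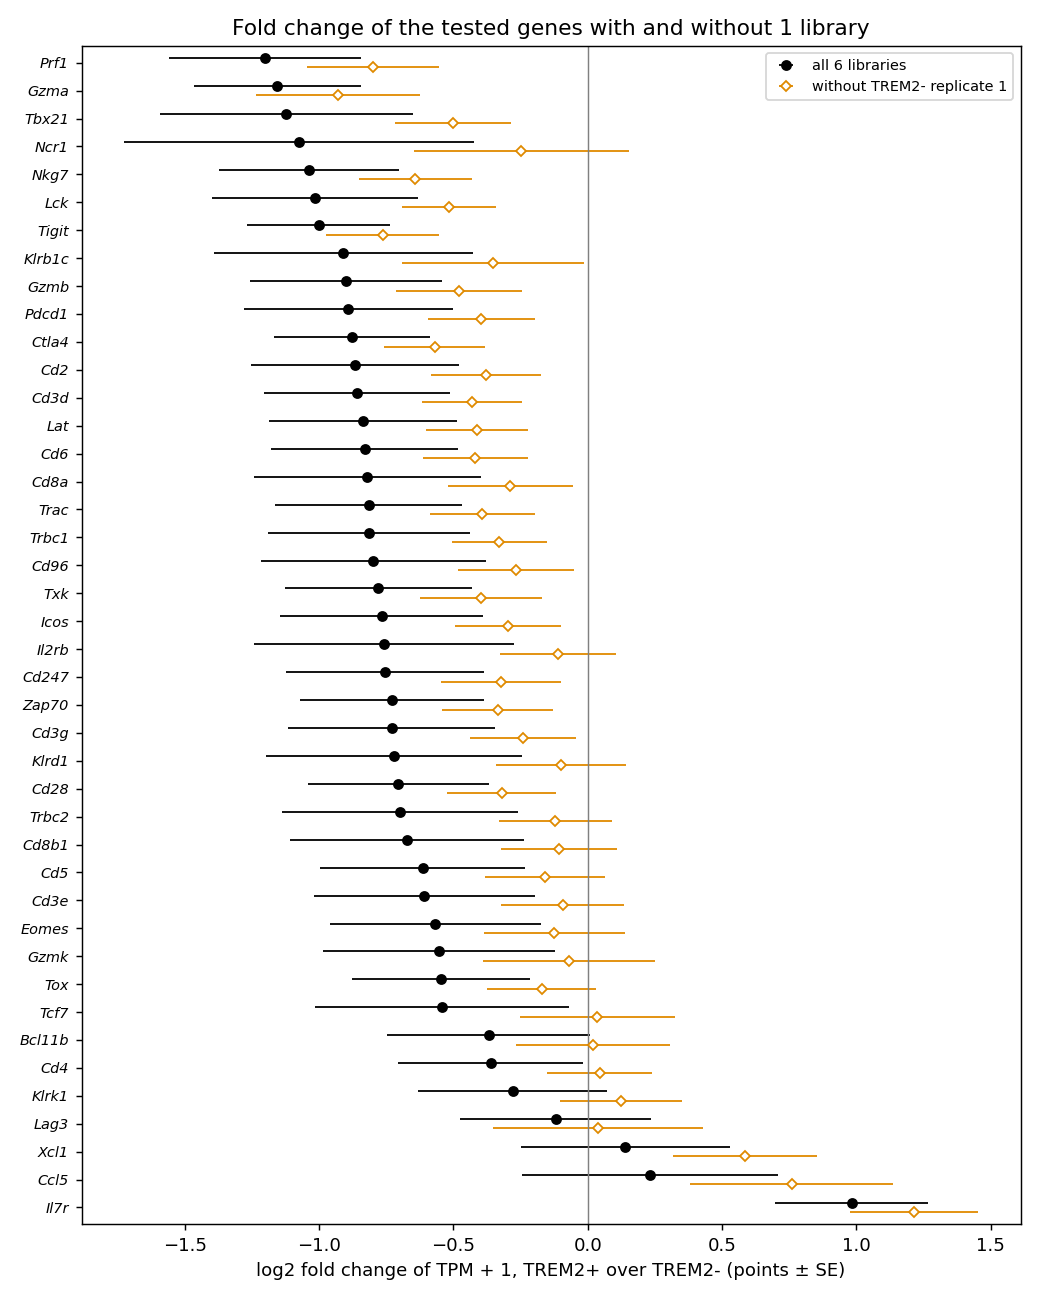
Log2 fold changes (TREM2+ over TREM2-, points with standard errors) of the 42 tested genes, with all 6 libraries (black circles) and without TREM2- replicate 1 (open orange diamonds). The median is -0.76 with all libraries and -0.29 without that one, and Il7r is the gene farthest to the right in both.

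The genes farthest below TREM2- replicates 2 and 3 in TREM2+ TAM were not those farthest above them in TREM2- replicate 1. Both ratios divide by the mean of TREM2- replicates 2 and 3, and a shared divisor can by itself give such a contrast. Its part was not tested. Over TREM2- replicates 2 and 3 alone, the mean TREM2+ level was 0.55 times theirs for Gzma, the lowest ratio, and 2.71 times for Il7r, the highest. The median was 0.81 times over the 44 genes and 1.04 times over all genes tested. The TREM2+ mean lay below theirs in 38 genes and above in Cd4, Foxp3, Il7r, Klrk1, Ccl5 and Xcl1. Gzma, Prf1 and Tigit were lowest in this ratio, and TREM2- replicate 1 held 1.604, 2.32 and 1.65 times the mean of TREM2- replicates 2 and 3 for them. For Ncr1, Tcf7 and Foxp3 it held 5.78, 4.795 and 6.604 times that mean, and the TREM2+ means were 0.8015, 0.997 and 1.36 times it.

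**Figure D3:**
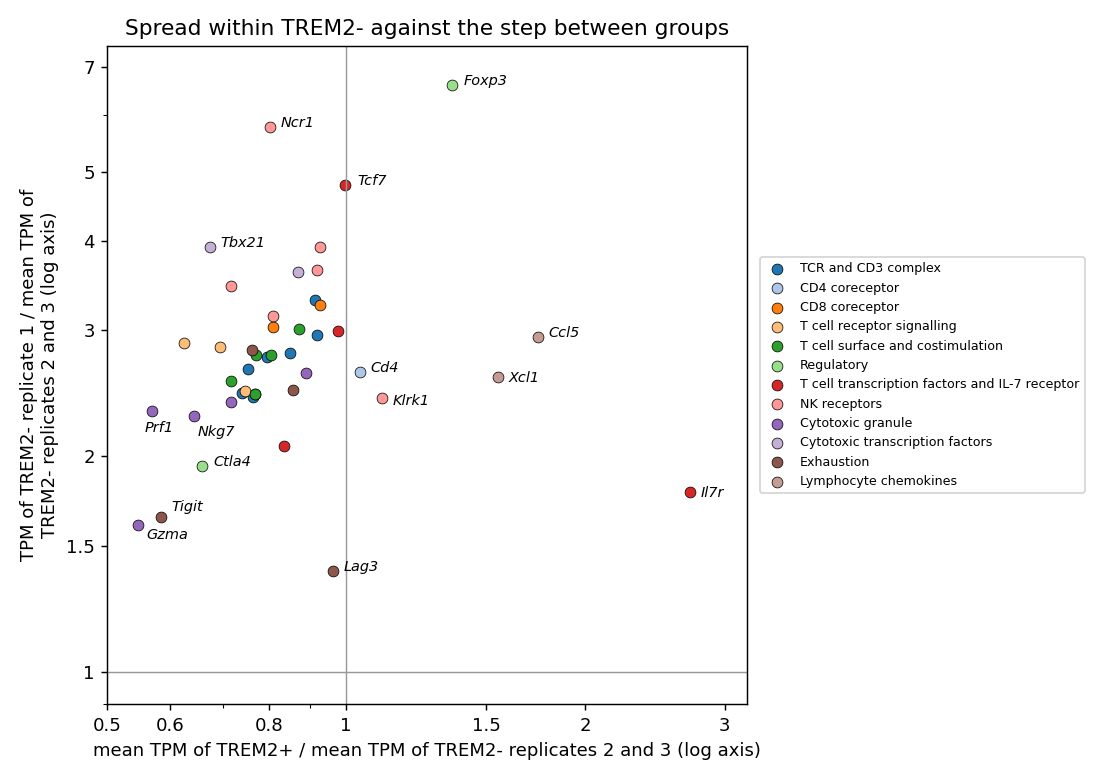
For each of the 44 genes, the mean TPM of TREM2+ over that of TREM2- replicates 2 and 3 (x, log axis) against TREM2- replicate 1 over the same 2 libraries (y, log axis), coloured by role. All points lie above 1 on the y axis, 38 lie below 1 on the x axis, and Il7r, Ccl5 and Xcl1 are farthest to the right.

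To set the genes against the level of T cell transcripts in each library, each was divided by the summed TPM of Cd3d, Cd3e and Cd3g. That sum was 136, 110.2 and 128 TPM in the TREM2+ libraries, against 409.7, 148 and 159 TPM in the TREM2- libraries. The CD3 sum was thus lower in all TREM2+ than in all TREM2- libraries. Division by it alone raises TREM2+ ratios over TREM2- ratios, for any gene. Over 6 libraries the coefficient of variation of the other 41 genes had a median of 65.2% as TPM and of 15.99% as a ratio to CD3. It was smaller as a ratio for 39 of the 41, and larger for Il7r and Lag3. Over all other genes tested the medians were 28.0% as TPM and 39.7% as a ratio, and 16.3% of them had a smaller coefficient as a ratio. Icos, the inducible costimulator, was the most constant at 5.07%, with ratios of 0.0895, 0.0858 and 0.0933 in the TREM2+ libraries, against 0.094, 0.0962 and 0.085 in the TREM2- libraries.

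Relative to CD3, 30 of the 41 genes overlapped between the groups. Among these were 12 genes whose TPM did not overlap, namely Trac, Trbc1, Cd247, Zap70, Lat, Cd2, Cd28, Icos, Ctla4, Gzma, Gzmb and Tigit. For 7 genes, namely Lck, Txk, Cd6, Nkg7, Prf1, Tbx21 and Pdcd1, all TREM2+ ratios lay below all TREM2- ratios. This held for 0.602% of all genes tested, a share that the lower CD3 sum of the TREM2+ libraries keeps small. Whether the 7 stand out from other genes that vary with CD3 was not tested. Nkg7 was 5.28, 5.26 and 5.39 times the CD3 sum in the TREM2+ libraries, against 5.72, 6.95 and 6.47 times in the TREM2- libraries. Prf1 was 0.197, 0.188 and 0.248 times the CD3 sum in the TREM2+ libraries, against 0.262, 0.354 and 0.253 times in the TREM2- libraries, so that TREM2+ replicate 3 and TREM2- replicate 3 nearly met.

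Of the 41 genes 4 had a higher ratio to CD3 in all TREM2+ libraries, namely Cd4, Il7r, Ccl5 and Xcl1. This held for 33.9% of all genes tested, a share that the lower CD3 sum of the TREM2+ libraries raises. As TPM, Cd4, Ccl5 and Xcl1 overlapped between the groups. Il7r was 0.0798, 0.0745 and 0.0613 times the CD3 sum in the TREM2+ libraries, against 0.0144, 0.018 and 0.0248 times in the TREM2- libraries. Its mean ratio was 3.77 times as high in TREM2+ as in TREM2- TAM, which includes the lower CD3 sum of TREM2+. As TPM the means of Il7r were 8.96 in TREM2+ and 4.17 in TREM2- libraries. Ccl5 had a mean of 5.27 ± 1.51 in TREM2+ and 2.56 ± 0.46 in TREM2- libraries, and Xcl1 of 0.341 ± 0.060 in TREM2+ and 0.178 ± 0.0062 in TREM2- libraries (SD, n = 3 each).

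**Figure D4:**
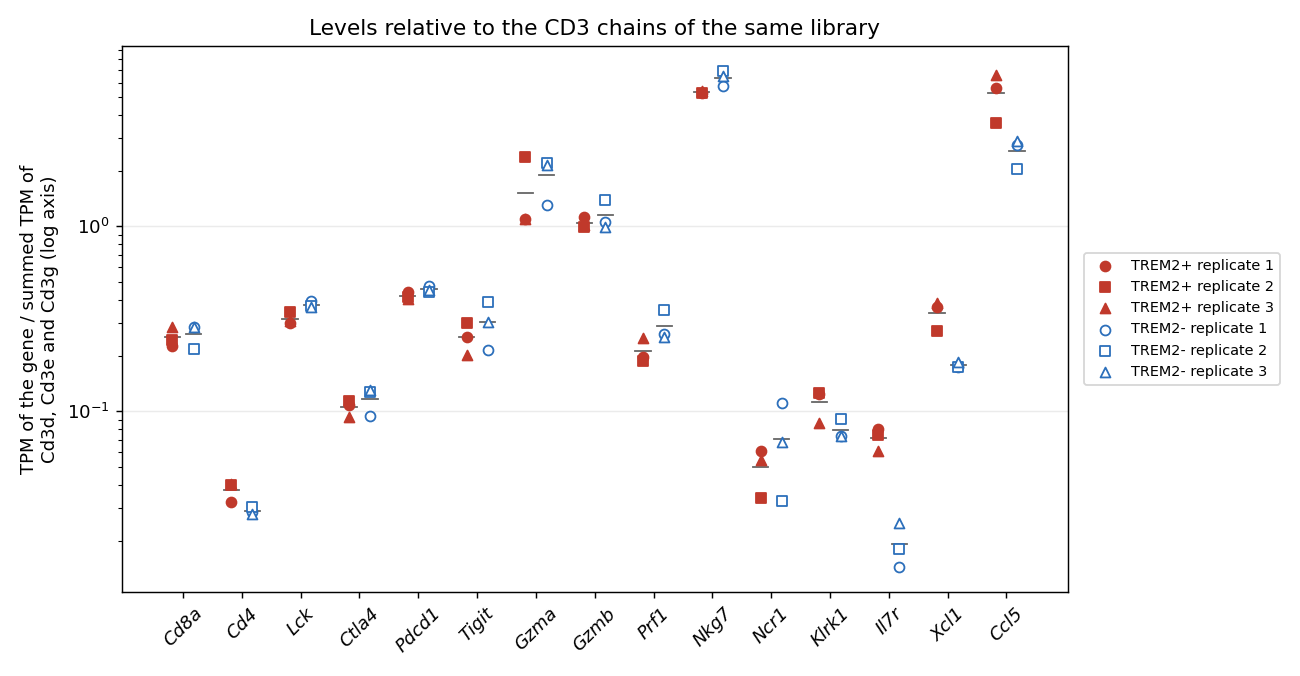
TPM of 15 of the genes divided by the summed TPM of Cd3d, Cd3e and Cd3g in the same library (log axis), TREM2+ as filled red and TREM2- as open blue symbols, with short lines at the group means. Il7r, Xcl1, Ccl5 and Cd4 lie higher in all TREM2+ libraries, and TREM2- replicate 1 no longer stands apart for most genes. The CD3 sum itself was lower in all TREM2+ libraries, which raises their ratios.

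Other genes of T and NK cells were mostly negative as well. Of 72 further genes of this kind 67 were tested, and 56 of these had a negative log2 fold change, with a median of -0.595, and -0.13 without TREM2- replicate 1. In limma 1 of them passed, beside 2.05% of all genes tested called higher and 0.37% lower. This was Ccr7, a homing receptor of T cells and mature dendritic cells, which fell by 1.19 ± 0.24 on the log2 scale (adjusted p = 0.0365). It had 20.3, 20.9 and 16.7 TPM in the TREM2+ libraries, against 58.1, 41.8 and 37.8 TPM in the TREM2- libraries. TREM2- replicate 1 was the highest library in 62 of the 72. None of the 67 passed without that replicate, when Ccr7 had -1.01 ± 0.19 (adjusted p = 0.0606 in limma). With each library left out in turn, Ccr7 was called in 1 of 6 fits.

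Ligands and receptors that pair with the 44 genes had a median log2 fold change of 0.29 over 28 tested genes, of which 6 were negative. In limma 4 passed, all higher, and 0 lower, beside 2.05% of all genes tested called higher and 0.37% lower. Of these 4 genes 3 are described here. Cd274 and Pdcd1lg2, both ligands of PD-1, rose on the log2 scale by 1.70 ± 0.34 (adjusted p = 0.0359) and 1.38 ± 0.26 (adjusted p = 0.0309). Cd274 had 174, 103 and 202 TPM in the TREM2+ libraries, against 58.8, 55.9 and 30.5 TPM in the TREM2- libraries. Pdcd1lg2 had 36.5, 36.4 and 59.3 TPM in the TREM2+ libraries, against 18.8, 12.99 and 16.4 TPM in the TREM2- libraries. In both, TREM2+ libraries were the higher ones. Clec4g, a lectin reported to bind LAG-3, rose by 3.57 ± 0.33 (adjusted p = 0.00335 in limma). Clec4g had 189, 124 and 166 TPM in the TREM2+ libraries, against 19.1, 13.02 and 7.39 TPM in the TREM2- libraries. Clec4g is also a marker of liver sinusoidal endothelium and is itself 1 of the 8 endothelial markers listed. With Clec4g included, these 8 summed to between 218 and 315 TPM in TREM2+ and between 18.7 and 38.2 TPM in TREM2- libraries. Of 7 endothelial markers tested, 6 were called higher, Clec4g among them. The receptors Pdcd1 and Lag3 themselves did not pass. With each library left out in turn, Pdcd1lg2 was called in 1, Cd274 in 2 and Clec4g in 6 of 6 fits.

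Markers of other cell types varied beside the T cell genes, with ranges of their summed levels as follows. All 12 B cell markers were highest in TREM2- replicate 1, and they summed to between 170.4 and 195 TPM in TREM2+ and between 75.2 and 460.2 TPM in TREM2- libraries. Of 10 dendritic cell markers 9 were highest there, with sums from 89.97 to 115 TPM in TREM2+ and from 121 to 313 TPM in TREM2- libraries. Of 7 hepatocyte markers 6 were highest in TREM2- replicate 1, with sums from 158 to 523 TPM in TREM2+ and from 104 to 1075 TPM in TREM2- libraries. Basophil and mast cell markers, 6 of 7 highest in TREM2- replicate 1, summed to between 30.8 and 40.4 TPM in TREM2+ and between 129 and 275 TPM in TREM2- libraries. Of these 7 markers 3 were called lower, beside 0.37% of all genes tested. Of 12 macrophage markers 11 had a positive log2 fold change, with a median of 1.04 and with C1qa, C1qb and C1qc among those called higher. Lyz2, a lysozyme gene of myeloid cells, was the exception at 29839, 37301 and 28336 TPM in the TREM2+ libraries, against 66719, 70509 and 55343 TPM in the TREM2- libraries. The other 11 summed to between 13784 and 17646 TPM in TREM2+ and between 3952 and 6519 TPM in TREM2- libraries, while with Lyz2 the sums were between 42120 and 54948 TPM in TREM2+ and between 60672 and 77028 TPM in TREM2- libraries. No marker of these lists was at 0 in any library. Transcripts of a family of 12 genes that share repeats took 0.43% of the TPM in TREM2- replicate 1, the lowest share, and up to 24.6% in TREM2- replicate 3, and leaving them out gave a median log2 fold change of -0.84 over the 42 genes.

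**Figure D5:**
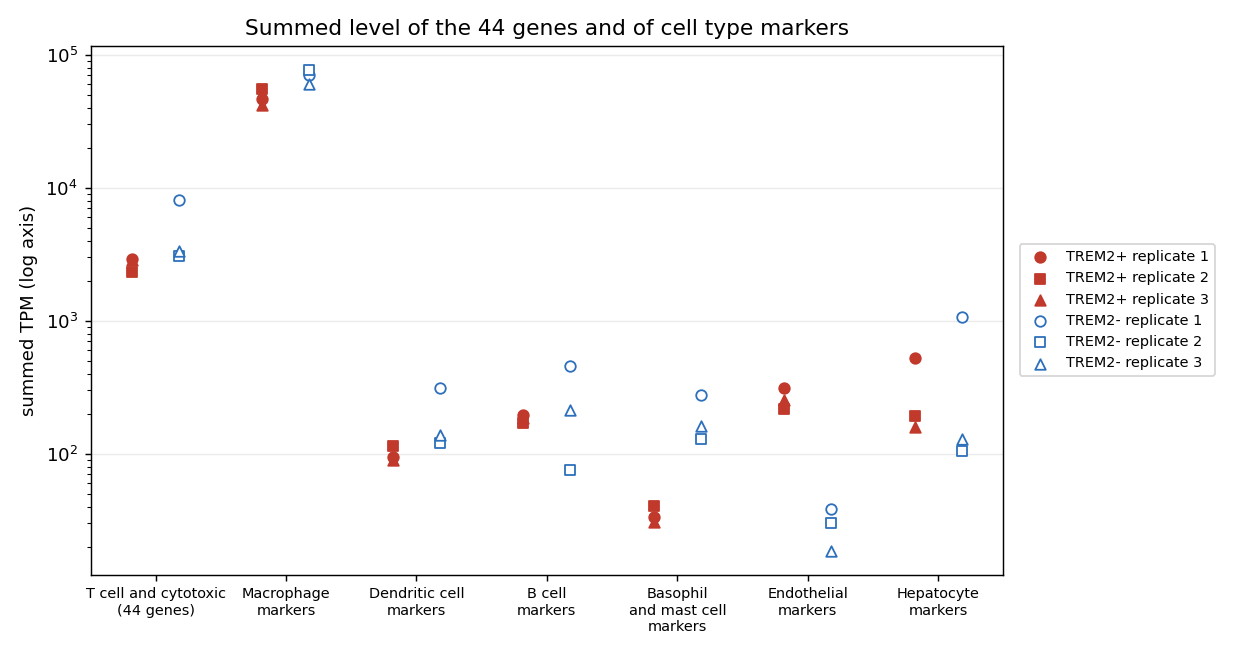
Summed TPM (log axis) of the 44 genes and of marker lists of other cell types in each library, TREM2+ as filled red and TREM2- as open blue symbols. TREM2- replicate 1 is the highest library for the 44 genes and for the dendritic cell, B cell, basophil and hepatocyte markers, but not for the macrophage markers, whose sum is mostly Lyz2, or the endothelial markers.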

How the data were processed

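Polyadenylated RNA of 6 libraries was sequenced from both ends. The submitters' processing notes name STAR 2.7.10a, Subread, featureCounts 2.0.3 and mm10. No source used here states the annotation, strand setting or formula. The deposited values are a length-scaled signal named TPM whose 6 columns sum to 1000000 together, so each library was rescaled here to 1000000, which the planned test had not assumed. Reads were recovered by multiplying by GENCODE M21 exon length (98.7% of matched rows above 0 whole within 0.01 read), giving 11493465 to 19929829 reads per library. Reads of overlapping genes cannot be told apart without a strand setting.

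Genes at 1 TPM or more in 3 or more libraries were fitted with limma 3.58.1 (R 4.3.3, trend, two-sided, adjusted by Benjamini-Hochberg, threshold 0.05). The fit was also run on simulated reads with known fold changes. There all genes had the same added spread and no library stood apart, so the simulation does not cover a library such as TREM2- replicate 1. Levels in every library are given for genes called, for the most abundant gene of each role, and for genes whose call or direction turned with a setting. Other genes given in full were chosen after their values were seen. The genes and lists were chosen with earlier results of these data known. Alternatives covered pseudocount, filter, scaling, weights, trend, replicate block, voom, threshold and libraries left out. Results of 2 further genes of the lists are not reported here.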

Additional observations from a re-analysis of the deposited data

How the results depend on the processing

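Of 787 values of the 44 genes under other settings, 755 kept their direction and their side of the threshold, 12 became calls and 20 turned direction, in 11 genes. Their median log2 fold change was negative in every setting, from -1.04 without TREM2- replicate 2 to -0.27 with library weights. In all settings the cause of a change was not tested. With library weights Cd3e had 0.018, Tcf7 0.165, Bcl11b 0.23, Ncr1 0.049, Klrk1 0.13, Klrd1 0.077, Gzmk 0.16 and Lag3 0.37, and without both libraries numbered 3 Ccl5 had -0.086 and Xcl1 -0.15. Over the fits that leave out 1 library, log2 fold changes ran from -0.57 to 0.045 for Cd4, -1.01 to 0.036 for Tcf7, -0.74 to 0.020 for Bcl11b, -0.53 to 0.125 for Klrk1, -0.49 to 0.085 for Lag3, -0.18 to 0.76 for Ccl5 and -0.13 to 0.59 for Xcl1.

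None of the 44 genes was called higher, except 1 with quantile normalization and 1 with library weights. Called lower were 1 with median-of-ratios scaling, 1 with quantile normalization, 1 without the repeat family, 3 with library weights, 3 with voom and 0 to 1 without 1 library. Of all genes, limma called 282 higher and 51 lower in TREM2+ TAM. Without 1 library they were 116 (TREM2- replicate 3) to 342 (TREM2- replicate 2) higher and 7 (TREM2- replicate 1) to 105 (TREM2- replicate 2) lower, with 148 higher without TREM2+ replicate 1, 153 without TREM2+ replicate 3 and 10 lower without TREM2- replicate 3. They were 0 and 0 without both libraries numbered 3, where 6 of the 42 genes were lower and 1 higher at an unadjusted p under 0.05. Lower calls numbered 31 with a pseudocount of 0.1, 80 with median-of-ratios scaling, 123 with quantile normalization and 101 without the repeat family. Higher and lower calls numbered 95 and 3 without a filter, 170 and 86 on deposited values, 976 and 389 with library weights, 444 and 170 with voom, and 425 and 89 at a threshold of 0.1. With the replicate number as a block they were 116 and 10, with 0 of the 44 genes called. Same-numbered libraries deviated together with r of 0.188, -0.033 and 0.224 across genes, and differently numbered ones with r from -0.376 to 0.131. Not every library correlated best with its own number. With so few libraries these values cannot decide whether the numbers pair them. The planned count models edgeR and DESeq2 were not run. Of the values with recovered reads, 6 rested on under 30 reads.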
